A study of Mus musculus with 11 samples.

Results

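Vessels of experimental glioma were compared between mice lacking Eltd1 and wild type mice, through the RNA bound to ribosomes of their endothelial cells. The comparison takes in every tumour library of the series, 5 of 11: 2 labelled as tumour on Eltd1-/- mice and 3 labelled as tumour on wild type mice. The remaining 6 libraries, 3 from healthy brain of wild type mice and 3 from healthy brain of Eltd1-/- mice, serve here for the spread between samples and for a second look at the genotype. Genes with at least 1 FPKM in 2 or more of the 5 tumour libraries were tested, which left 13727 of 45803. FPKM counts the fragments of a gene relative to its transcript length and to all mapped fragments in the library.

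All mice were adult C57BL/6 animals and, per the study's design text, the line carrying the ribosomal protein L10a fused to eGFP under the VE-cadherin promoter had been crossed with the knockout. Tumours were formed by intracranial injection of GL261, a glioma line of C57BL/6 origin, and the genotype of a group is that of the host. Tagged ribosomes were captured from dissected tissue with antibody-coated beads, a method called translating ribosome affinity purification. Its yield depends on where the VE-cadherin promoter is active, and carries over some RNA of other cells. The protocol speaks of 3 mouse samples per group. Knockout tumour replicates 1 and 2 were analysed here. Replicate numbers only name the samples. Since nothing says whether a sample is a single mouse or a pool, p-values measure only the spread between these samples.

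Eltd1, now called Adgrl4, encodes an adhesion G protein-coupled receptor, a class with a long extracellular part that is cut from the membrane-spanning part and stays attached to it. It is expressed mainly in endothelial cells and is known for its raised expression in the vessels of glioma and other tumours. Glioma vessels are leaky, lose parts of the blood-brain barrier programme and control the entry of immune cells, and the gene groups below were chosen around these functions. Ligands and signalling routes of the receptor are poorly known.

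The libraries differed in quality. FPKM sums ran from 477911 to 641665, and depth is unknown because the values hold no counts. Wild type replicate 2 was listed at 0 for 35.2% of the tested genes, against 1.93% to 4.85% in the other 4 tumour libraries. Across genes, Pearson correlations of log2(FPKM + 1) with wild type replicate 2 ran from 0.67 to 0.75, while the knockout replicates correlated with each other at 0.87 and with wild type replicate 1 at 0.88 and 0.87. Endothelial identity genes were present in all groups: the 28 genes of that list summed to 1132 and 950 FPKM in knockout and to 934, 1379 and 603 FPKM in wild type tumours, against 2166 to 3013 FPKM in the brain libraries. Markers of other cells were present too. Neuronal markers summed to 1152 and 1931 FPKM in knockout and to 321, 775 and 4079 FPKM in wild type tumours, and were thus highest by far in wild type replicate 3. Without Tubb3, which lies in a chromosome 8 interval described below, they summed to 895 and 1611 FPKM against 321, 481 and 4079 FPKM. Results are therefore given with each library's value, and values without wild type replicate 2, or without another library that moved them, are set beside the gene groups.

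Adgrl4 was low in both knockout tumours. It stood at 11.5 and 5.82 FPKM in knockout and at 45.0, 192 and 27.4 FPKM in wild type tumours. The groups did not overlap, with wild type replicate 2 the highest library. The knockout mean was 9.81% of the wild type mean, or 23.9% without wild type replicate 2. In brain it stood at 21.6, 23.6 and 22.2 FPKM in knockout and at 166, 82.7 and 153 FPKM in wild type, a knockout mean of 16.8% of the wild type mean. The log2 difference in tumour was -2.78 (SE 0.69, limma adjusted p = 0.796), and an exact two-sided permutation test over the 5 tumour libraries gave p = 0.2, where 10 arrangements allow no p below 0.1. The difference passed the threshold with weights per library (log2 difference -2.34, adjusted p = 0.0268). Which exons the knockout allele lacks is not stated by the labels, and transcript from a remaining part would still be counted.

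The gene lies on chromosome 3 (GRCm38, positions 151437882 to 151545081 of the RefSeq annotation), and its next tested genes on the distal side are Ifi44 and Ifi44l, a pair of interferon-induced genes. Both lie on the minus strand, and the near end of Ifi44 is 186 kb and that of Ifi44l 214 kb beyond the end of Adgrl4. The promoters of the 3 genes are shown because Ifi44l, next to the targeted gene, was one of the few genes past the threshold. Each sequence holds 250 bases before and 50 after the RefSeq start, read 5′ to 3′ on the strand of the gene. Capitals mark TTTCNNTTT or, on the other strand, AAANNGAAA, a short form of the interferon-stimulated response element.
Adgrl4, chr3:151437632-151437931, plus strand: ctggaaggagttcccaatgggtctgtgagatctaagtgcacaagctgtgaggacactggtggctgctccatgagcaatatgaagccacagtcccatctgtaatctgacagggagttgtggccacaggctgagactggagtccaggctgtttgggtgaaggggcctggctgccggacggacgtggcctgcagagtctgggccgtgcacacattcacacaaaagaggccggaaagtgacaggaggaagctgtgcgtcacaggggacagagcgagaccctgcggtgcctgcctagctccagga
Ifi44, chr3:151749861-151750160, minus strand: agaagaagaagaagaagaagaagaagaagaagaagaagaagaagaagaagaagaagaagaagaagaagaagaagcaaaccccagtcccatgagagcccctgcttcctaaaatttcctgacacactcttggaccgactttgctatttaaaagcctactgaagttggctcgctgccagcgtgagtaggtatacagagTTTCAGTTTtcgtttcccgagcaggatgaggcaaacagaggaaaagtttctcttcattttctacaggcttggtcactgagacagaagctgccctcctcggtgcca
Ifi44l, chr3:151762842-151763141, minus strand: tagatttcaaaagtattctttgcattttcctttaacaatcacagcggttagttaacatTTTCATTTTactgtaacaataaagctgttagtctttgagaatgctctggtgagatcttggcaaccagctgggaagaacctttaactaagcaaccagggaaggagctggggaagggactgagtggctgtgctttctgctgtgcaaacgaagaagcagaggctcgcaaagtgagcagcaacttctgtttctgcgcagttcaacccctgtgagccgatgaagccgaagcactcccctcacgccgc
The short form had 1 match each in the Ifi44 and Ifi44l promoters and 0 in that of Adgrl4, and 3466 of 32851 RefSeq promoters of this length hold it (10.6%). The short form was taken up after the sequences had been read, in place of a longer form with a further C at the 3′ end, which matched 0 times in each of the 3 and is held by 1131 promoters (3.44%). A match is a description of letters only.

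Ifi44l was higher in both knockout tumours. It stood at 33.6 and 19.9 FPKM in knockout and was listed at 0 in the 3 wild type tumours. With those zeros Ifi44l could pass the filter only through both knockout tumours. It was also listed at 0 in the 3 wild type brains, and stood at 0, 2.25 and 2.18 FPKM in knockout brains. No library of a wild type mouse thus had a value above 0, in either tissue. The log2 difference in tumour was 4.75 (SE 0.62, limma adjusted p = 0.0389), which is on the log2(FPKM + 1) scale and is no fold, since wild type was at 0. Of 20 alternative settings 12 ended the call. The largest loss came when the tumour libraries were fitted alone (limma adjusted p = 0.9999). Others were leaving out knockout replicate 1 (adjusted p = 0.306), knockout replicate 2 (0.171) or wild type replicate 1 (0.0654). Ifi44 stood at 104 and 147 FPKM in knockout and at 94.8, 71.5 and 67.8 FPKM in wild type tumours, without overlap (log2 difference 0.67, SE 0.65). In brain Ifi44 ran the other way, at 3.89, 25.7 and 7.404 FPKM in knockout and at 55.0, 21.7 and 52.7 FPKM in wild type, with overlap.

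**Figure D1:**
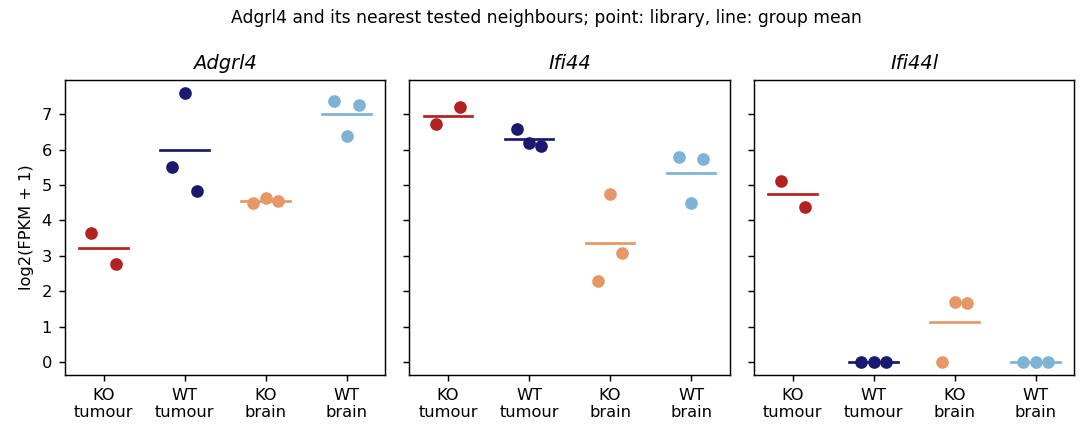
Expression of Adgrl4, Ifi44 and Ifi44l as log2(FPKM + 1) in the 11 libraries, with 1 point per library and a line at each group mean (knockout tumour n = 2, other groups n = 3). Adgrl4 is lower in knockout in both tissues, and Ifi44l is above 0 in both knockout tumours and listed at 0 in every wild type library.

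Within 5 Mb of Adgrl4 lay 25 further tested genes. Ifi44l was the single one of them past the threshold, 5 were higher and 0 lower in knockout without overlap, and their median log2 difference was 0.35. Over all tested genes 0.0219% were called higher, 11.3% were higher and 5.22% lower without overlap, and the median was 0.19. Beside Ifi44 and Ifi44l, the non-overlapping genes were Zzz3, Tyw3 and Fpgt. Zzz3, a subunit of a histone acetyltransferase complex, stood at 45.1 and 54.9 FPKM in knockout and at 34.8, 32.1 and 33.0 FPKM in wild type. The neighbouring paralogue Adgrl2, a latrophilin receptor, stood at 7.78 and 11.4 FPKM against 5.46, 0 and 10.4 FPKM, with overlap.

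Over all genes, limma called 3 of 13727 at an adjusted p under 0.05, all higher in knockout (0.0219%), and 0 lower (0.0%). They were Cox4i1, Ifi44l and 1 pseudogene of a ribosomal protein gene, whose reads may belong to near-identical copies. All 3 were listed at 0 in every wild type tumour. Of the tested genes 51 had such zeros, 38 of them outside the chromosome 8 interval, and 65 were listed at 0 in both knockout tumours. Those 51 passed the filter only through both knockout tumours and are higher without overlap by the filter itself. At an unadjusted p under 0.05, 399 genes were higher (2.91%) and 82 lower (0.597%). The groups did not overlap for 1555 genes higher (11.3%) and 717 lower (5.22%). Of the genes with an unadjusted p under 0.05, 83.0% were higher in knockout, a share that was 82.0% when libraries were scaled to equal upper quartiles and 53.8% with quantile normalization. Wild type replicate 2 was listed at 0 for 273 of the 399 higher genes and was the highest library for 56 of the 82 lower genes. The median log2 difference of all tested genes was 0.19, and 0.06 without that library. The number called was 8 without wild type replicate 1, 33 without wild type replicate 2, 15 without wild type replicate 3, 2 without knockout replicate 1 and 0 without knockout replicate 2. Of the 33 genes called without wild type replicate 2, 26 lie in the chromosome 8 interval described next and 7 outside it, and of 63 called with library weights 34 lie in it and 29 outside.

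Cox4i1 lies in a stretch of chromosome 8 that was listed at 0 throughout in a pair of wild type tumours. Cox4i1, a subunit of cytochrome c oxidase in the mitochondrial respiratory chain, stood at 56.5 and 110 FPKM in knockout and was listed at 0 in the 3 wild type tumours (log2 difference 6.32, SE 0.54, limma adjusted p = 0.00163). The call was lost when knockout replicate 2 was left out (adjusted p = 0.0527) and when the tumour libraries were fitted alone (adjusted p = 0.660). In brain it was abundant in both genotypes, at 182, 338 and 118 FPKM in knockout and 396, 173 and 163 FPKM in wild type. From Usp10 to Urb2 (GRCm38 chromosome 8, 119910360 to 124048505, 4.138 Mb), 59 tested genes in a row were listed at 0 in wild type replicates 1 and 3. The next longest run of zeros was 3 genes in wild type replicate 1 and 7 in wild type replicate 3. Knockout replicate 1 had 58 of the 59 genes above 0, knockout replicate 2 had 59, wild type replicate 2 had 46, and the brain libraries had 48 to 58. A gene at 0 in wild type replicates 1 and 3 passed the filter only through the remaining tumour libraries. Their counts are thus largely fixed by the selection, in which the brain libraries took no part.

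The stretch holds genes that most cells use. Rpl13, a protein of the large ribosomal subunit, stood at 392 and 466 FPKM in knockout and at 0, 448 and 0 FPKM in wild type tumours. Map1lc3b, an autophagy protein, stood at 95.1 and 76.3 FPKM against 0, 38.1 and 0 FPKM. Slc7a5, the large neutral amino acid transporter of the blood-brain barrier, stood at 89.6 and 77.3 FPKM against 0, 84.6 and 0 FPKM. In each, wild type replicate 2 had a value and replicates 1 and 3 were at 0. Irf8, a macrophage transcription factor, and Tubb3, a neuronal tubulin, had the same zeros. Of the 59 genes, 40 had an unadjusted p under 0.05, 31 were higher in knockout without overlap and 13 were listed at 0 in all 3 wild type tumours. Cox4i1, Fbxo31, Rab4a, Taf5l and Ccsap belong to these 13. The stretch was picked by zeros in wild type tumours, which in part fixes these counts in advance. The 13 passed the filter only through both knockout tumours, so their groups could not overlap. With the 59 genes left out, a setting added after the data were seen, 0 genes were called. The difference of Ifi44l, which lies outside, was still 4.75 there, with a limma adjusted p of 0.0579 in place of 0.0389. In this setting 359 were higher (2.63%) and 82 lower (0.6%) at an unadjusted p under 0.05, and 1524 (11.2%) and 717 (5.25%) did not overlap. The part of this stretch's zeros in the call of Cox4i1 was not tested beyond these values.

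**Figure D2:**
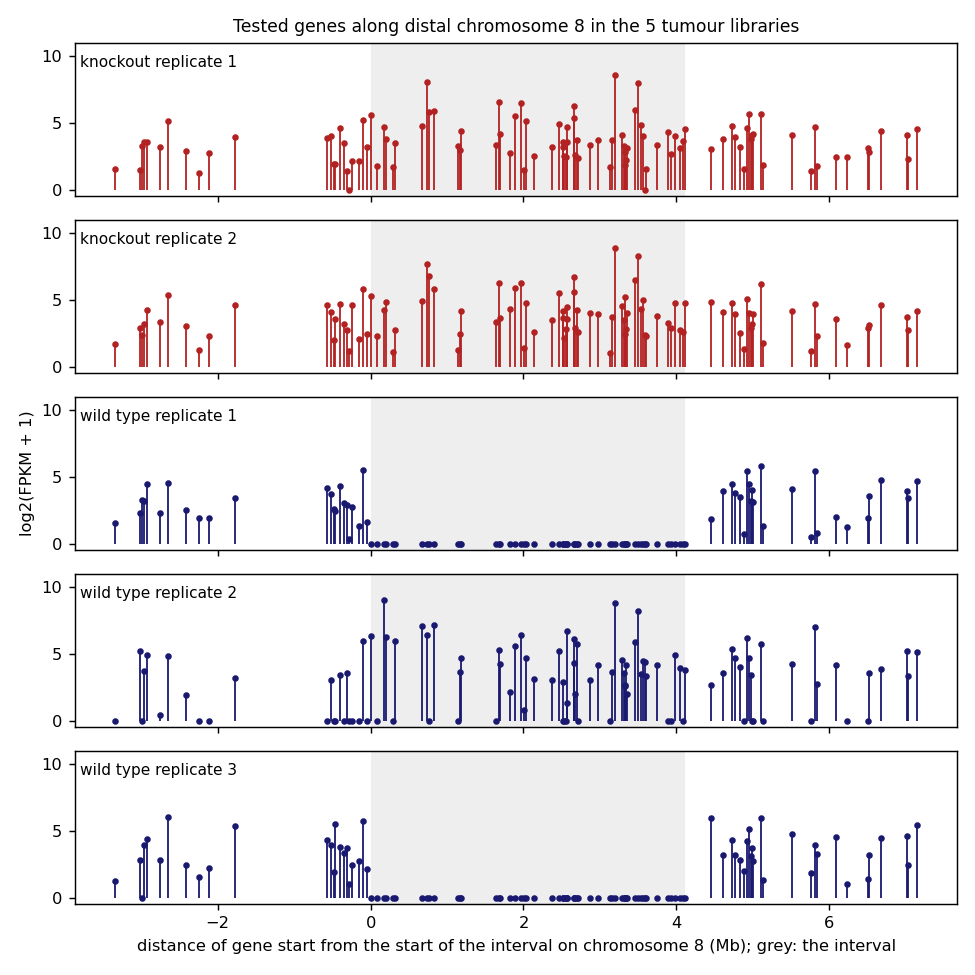
log2(FPKM + 1) of each tested gene along distal chromosome 8 against its distance from the start of the interval in Mb, with 1 panel per tumour library and the interval in grey. All 59 genes of the interval sit at 0 in wild type replicates 1 and 3, while genes on either side have values in all 5 libraries or most of them.

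Outside that interval and the calls above, no gene named here passed the threshold. The brain libraries share in the spread of the fit, and zeros in all 6 of them lower that spread and with it the p. Plac8, Tlr12, Arg1, Car9, Terc, Gtsf1, Rhox5 and Hoga1 had such zeros, which favour them in a ranking by p. The called pseudogene had them too, and Ifi44l was listed at 0 in the 3 wild type brains. Zeros throughout the wild type tumours lower the spread as well, which holds for all 3 called genes. The genes below are those with the smallest p whose groups did not overlap, and their values are descriptions. Slc15a4, a lysosomal transporter of histidine and peptides that works in endosomal Toll-like receptor signalling, had the largest log2 difference among them. It stood at 436 and 208 FPKM in knockout and at 4.29, 12.1 and 2.57 FPKM in wild type tumours, a ratio of means of 51.0 (log2 difference 5.59, SE 1.06, limma adjusted p = 0.292). In brain it lay between 0 and 12.01 FPKM in both genotypes, so the high values were those of both knockout tumours. It passed the threshold with weights per library (adjusted p = 0.00591).

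Genes of myeloid cells were among the higher ones. Plac8, a small protein of myeloid and other cells, stood at 9.26 and 6.24 FPKM against 0.924, 0 and 0 FPKM. Tlr12, a Toll-like receptor, stood at 23.6 and 11.1 FPKM against 4.00, 0 and 0.780 FPKM. Both were listed at 0 in all 6 brain libraries. Clec7a, the beta-glucan receptor Dectin-1, stood at 15.2 and 16.5 FPKM against 5.02, 0 and 2.71 FPKM. Arg1, the arginase of alternatively activated macrophages, stood at 8.32 and 38.7 FPKM against 4.52, 2.02 and 0 FPKM. For these 4 genes the limma adjusted p ran from 0.180 for Plac8 to 0.942 for Arg1 and Clec7a. In bulk RNA more cells of a type and more RNA per cell cannot be told apart.

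Car9, linked to low oxygen, and P4ha2, linked to matrix, were also among the higher genes, as was Terc, which is linked to neither. Car9, a carbonic anhydrase induced by hypoxia, stood at 2.80 and 11.8 FPKM in knockout and was listed at 0 in the 9 other libraries. P4ha2, a collagen prolyl hydroxylase subunit, stood at 11.5 and 5.43 FPKM against 0.552, 0 and 0.0778 FPKM. Terc, the RNA component of telomerase, stood at 3.52 and 10.1 FPKM and was listed at 0 in the 3 wild type tumours. These 3 were low-abundance transcripts, at 11.8 FPKM or less in every tumour library. Car9 and Terc passed the filter only through both knockout tumours.

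Genes of endothelial surface and transport were represented by Plvap and Tfrc. Plvap forms the diaphragms of fenestrae and caveolae and marks leaky vessels, and stood at 5.03 and 5.72 FPKM in knockout and at 0.877, 0 and 1.21 FPKM in wild type tumours (log2 difference 1.99, SE 0.57). Tfrc, the transferrin receptor that carries iron across the barrier, stood at 55.0 and 29.99 FPKM against 9.35, 9.80 and 16.3 FPKM (log2 difference 1.74, SE 0.47, limma adjusted p = 0.942). Its ratio of means was 3.59, and no wild type library of Tfrc was at 0. Atp11a, a phospholipid flippase, stood at 36.0 and 16.8 FPKM against 4.33, 0 and 4.85 FPKM. Lect1, an inhibitor of vessel growth first found in cartilage, stood at 55.9 and 9.68 FPKM against 4.45, 0 and 0 FPKM, so that the knockout libraries differed widely. The others with the smallest p outside the interval were Gtsf1, Susd4, Akip1, Snapc5, Dsel, Ppapdc1b and Rhox5, with log2 differences from 2.45 for Dsel to 3.25 for Snapc5. Each of these 7 was listed at 0 in wild type replicate 2.

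Among the lower genes, Adgrl4 had the second smallest p. Samd12 came before it, listed at 0 in both knockout tumours and at 4.26, 24.1 and 6.35 FPKM in wild type (log2 difference -3.31, SE 0.73, limma adjusted p = 0.597). In brain Samd12 stood at 22 to 55.9 FPKM in both genotypes. Egr1, an immediate early transcription factor, stood at 7.36 and 4.14 FPKM in knockout and at 17.4, 15.3 and 18.5 FPKM in wild type tumours. Its wild type values lay close together (log2 difference -1.46, SE 0.40, adjusted p = 0.942). Idh3g, a subunit of the isocitrate dehydrogenase of the citric acid cycle, stood at 88.8 and 96.1 FPKM against 173, 196 and 181 FPKM, a ratio of means of 0.505. Eya4, a phosphatase and transcriptional coactivator, stood at 1.43 and 1.42 FPKM against 6.45, 8.56 and 8.13 FPKM. In these 3 genes no tumour library was at 0 and wild type replicate 2 lay with the other wild type libraries.

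In other lower genes wild type replicate 2 stood far above the rest. E2f2, a cell cycle transcription factor, stood at 2.88 and 7.01 FPKM in knockout and at 31.4, 103 and 28.3 FPKM in wild type. Gsta4, a glutathione transferase, stood at 16.4 and 20.2 FPKM against 41.8, 118 and 49.3 FPKM. Hoga1, a mitochondrial aldolase, was listed at 0 in both knockout tumours and at 1.38, 53.3 and 5.88 FPKM in wild type. The remaining genes of the 15 with the smallest p were Dmrta1, Adck2, Lonrf3, Tgm1, Zgpat, Eif5b and Rhot2, with log2 differences from -1.50 for Tgm1 to -3.01 for Adck2. Wild type replicate 2 was the highest library for Dmrta1, Adck2, Lonrf3 and Rhot2.

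**Figure D3:**
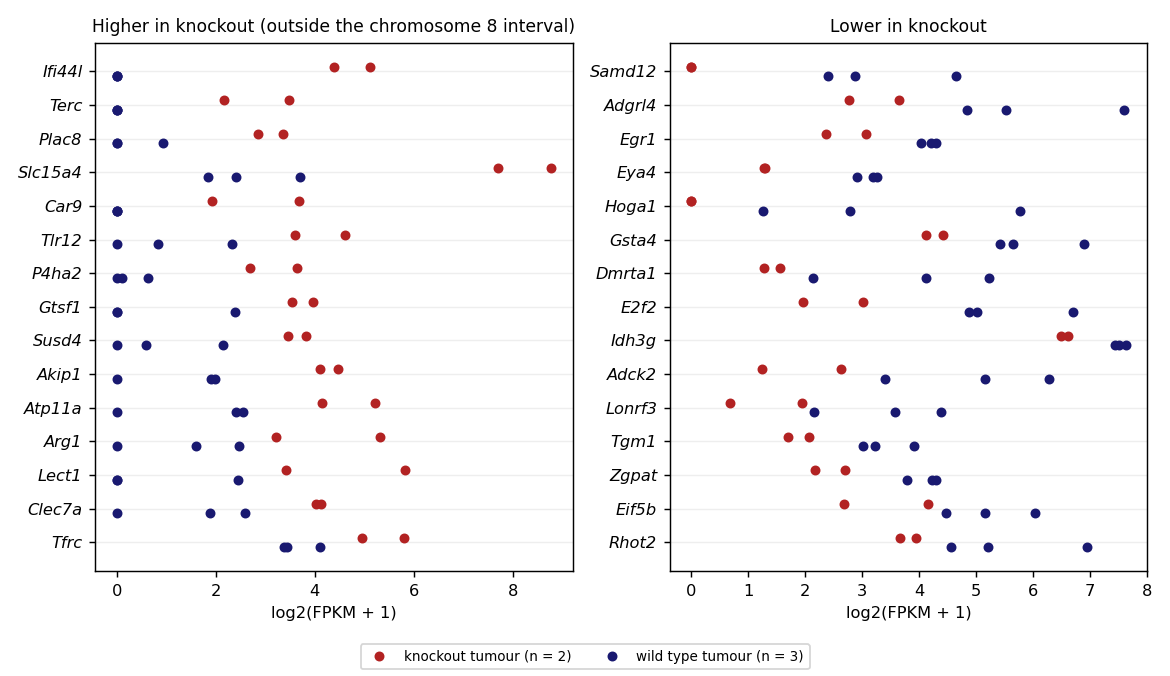
log2(FPKM + 1) per tumour library for genes with the smallest p whose groups did not overlap, higher in knockout outside the chromosome 8 interval (left) and lower in knockout (right), with 1 point per library. Slc15a4 shows the widest gap on the left, and Adgrl4 is the second gene on the right.

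Gene groups were described by counts and medians, and 0 members of any of the 37 lists were called, higher or lower. Of 36 lists with at least 3 tested members, 29 had a median log2 difference above the 0.19 of all tested genes, and 30 lay above the 0.06 of all genes without wild type replicate 2. Without wild type replicate 3, 26 lay above the 0.27 of all genes. The lists thus mostly share the direction of the whole table, and their counts are read against the 11.3% of all genes higher and 5.22% lower without overlap.

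The endothelial programme was represented by its identity genes, junctions and transporters. Of 28 endothelial identity genes, 8 were higher and 0 lower without overlap, with a median of 0.30 (0.43 without wild type replicate 2). Without wild type replicate 3 it was 0.07, below the 0.27 of all tested genes in that setting, and without knockout replicate 2 it was 0.56. Cdh5, the adherens junction cadherin of endothelium, stood at 18.98 and 20.2 FPKM in knockout and at 16.9, 4.28 and 8.11 FPKM in wild type. Tek, the angiopoietin receptor, stood at 12.5 and 10.0 FPKM against 4.64, 4.71 and 7.38 FPKM. Eng, the TGF-beta coreceptor endoglin, stood at 35.9 and 36.7 FPKM against 32.5, 2.66 and 11.7 FPKM, close to wild type replicate 1. Of 12 barrier junction genes 1 was higher and 2 lower without overlap, with a median of 0.22 (0.24), which was 0.43 without knockout replicate 1 and 0.01 without knockout replicate 2. Cldn5, the main claudin of the barrier, stood at 104 and 128 FPKM against 77.3, 136 and 75.4 FPKM, with overlap.

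Barrier transporters were often higher in knockout. Of 23 genes 10 were higher and 0 lower without overlap, 6 had an unadjusted p under 0.05, and the median was 0.80 (0.78 without wild type replicate 2). One of the 23, Slc7a5, lies in the chromosome 8 interval. Bsg, a glycoprotein that escorts lactate transporters, stood at 431 and 533 FPKM in knockout and at 246, 389 and 218 FPKM in wild type (log2 difference 0.80, SE 0.32). Abcg2, a drug efflux pump, stood at 71.9 and 64.5 FPKM against 27.9, 0 and 24.3 FPKM. Slc2a1, the glucose transporter of the barrier, stood at 91.5 and 182 FPKM against 71.2, 44.5 and 93.8 FPKM, and overlapped. Mfsd2a, a lipid transporter that restrains transcytosis, stood at 26.9 and 10.2 FPKM against 8.44, 0 and 6.56 FPKM. Of 12 genes of caveolae and transcytosis 5 were higher without overlap (median 0.68, and 0.74, but 0.39 without wild type replicate 3), among them Plvap and Ptrf, the caveolar coat protein cavin-1, at 125 and 119 FPKM against 81.0, 90.4 and 71.4 FPKM.

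Growth factor signalling of vessels was mixed. Of 9 VEGF ligands and receptors 3 were higher without overlap (median 0.47, 0.62 without wild type replicate 2 and 0.78 without knockout replicate 1). Flt1, a VEGF receptor, stood at 22.7 and 28.9 FPKM against 10.9, 18.5 and 17.3 FPKM, while Kdr, the main signalling receptor, stood at 13.5 and 9.89 FPKM against 8.79, 15.4 and 5.90 FPKM. The ligand Vegfa stood at 7.36 and 36.9 FPKM in knockout, a wider spread than in wild type at 32.9, 22.3 and 12.5 FPKM. Of 5 angiopoietin and Tie genes 3 were higher (median 0.97, and 0.83), with Ptprb, the endothelial phosphatase of Tie2, at 10.6 and 15.1 FPKM against 6.22, 0 and 5.18 FPKM. Of 20 tip cell and sprouting genes 7 were higher (median 0.59, and 0.67), with Kcne3, a potassium channel subunit, at 8.75 and 21.3 FPKM against 0.713, 0 and 8.07 FPKM.

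Arterial and Notch genes depended on wild type replicate 2. Of 15 arterial genes 8 were higher without overlap, and the median was 1.18 with all libraries and 0.53 without that replicate, which was listed at 0 for 12 of the 15. Mgp, matrix Gla protein, an inhibitor of BMP signalling, stood at 18.7 and 29.3 FPKM against 8.86, 0 and 3.33 FPKM. Cxcl12, a chemokine of arterial endothelium, stood at 8.44 and 13.7 FPKM against 2.84, 6.93 and 3.63 FPKM, with no library at 0. Of 15 Notch genes 3 were higher (median 0.70, and 0.32, but 1.21 without wild type replicate 1), and of 13 venous genes 4 were higher (0.47, and 0.41). In the endothelial Wnt/beta-catenin list 4 of 28 genes were higher and 4 lower without overlap (median -0.12, and -0.05). That median was 0.03 without knockout replicate 2 and -0.23 without wild type replicate 1. Axin2, a general Wnt target, stood at 5.37 and 10.0 FPKM in knockout and at 15.3, 78.5 and 8.96 FPKM in wild type, and Lef1 at 17.1 and 20.6 FPKM against 14.04, 21.0 and 16.3 FPKM.

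Matrix genes were often higher in knockout. Of 32 basement membrane and matrix genes 16 were higher and 0 lower without overlap, 4 had an unadjusted p under 0.05, and the median was 0.60 (0.70 without wild type replicate 2). Fn1, fibronectin, stood at 122 and 130 FPKM in knockout and at 54.9, 52.1 and 83.2 FPKM in wild type (log2 difference 1.01, SE 0.39). Sparc, a collagen-binding matrix protein, stood at 172 and 194 FPKM against 129, 99.2 and 69.2 FPKM. Timp3, an inhibitor of matrix proteases, stood at 19.8 and 14.2 FPKM against 7.51, 6.59 and 6.88 FPKM. None of these 3 had a library at 0. Of 27 BMP and TGF-beta genes 7 were higher (median 0.60, and 0.38), with Acvrl1, the endothelial BMP9 receptor ALK1, at 48.6 and 51.4 FPKM against 16.9, 37.8 and 9.62 FPKM. Of 15 genes of PDGF and vessel stabilisation 6 were higher and 1 lower (0.58, and 0.42), with S1pr1, the sphingosine-1-phosphate receptor, at 27.8 and 21.5 FPKM against 7.94, 1.80 and 18.4 FPKM.

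The 14 genes of the IGF axis split. There, 3 were higher and 1 lower without overlap (median 0.57, 0.47 without wild type replicate 2 and 0.31 without knockout replicate 2). Igf1r, the receptor, stood at 26.5 and 31.6 FPKM against 17.4, 7.35 and 14.3 FPKM, and the ligand Igf2 at 0.343 and 4.32 FPKM against 12.4, 8.02 and 17.1 FPKM. Of 17 genes of coagulation and fibrinolysis 5 were higher (0.47, and 0.59). Their median was 0.16 without wild type replicate 3 and 0.75 without wild type replicate 1.

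Antigen presentation genes were often higher in knockout. Of 22 MHC class I genes 13 were higher and 0 lower without overlap, and 1 had an unadjusted p under 0.05. The median was 0.76 (0.89 without wild type replicate 2, but 0.61 without wild type replicate 3). Their summed level was 6570 and 5061 FPKM in knockout and 4461, 5281 and 2517 FPKM in wild type tumours, with overlap. B2m, the light chain of class I molecules, stood at 416 and 432 FPKM in knockout and at 403, 236 and 161 FPKM in wild type. H2-D1, a class I heavy chain, stood at 314 and 311 FPKM against 247, 145 and 114 FPKM. Tap2, a peptide transporter, stood at 110 and 88.2 FPKM against 78.9, 42.1 and 30.4 FPKM. In all 3 genes wild type replicate 1 lay nearest to knockout and wild type replicate 3 lowest. Of 10 MHC class II genes 4 were higher (0.73, and 1.00, but 0.32 without wild type replicate 3), and Cd74, the invariant chain, stood at 333 and 286 FPKM against 265, 301 and 69.8 FPKM, with overlap.

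Interferon response genes were higher in part. Of 45 genes, a list that holds Irf8 of the chromosome 8 interval and not Ifi44l, 13 were higher and 0 lower without overlap (median 0.40, and 0.43 without wild type replicate 2). Without wild type replicate 3 that median was 0.22, below the 0.27 of all genes. Xaf1, an interferon-induced regulator of apoptosis, stood at 152 and 97.2 FPKM in knockout and at 79.8, 4.66 and 15.6 FPKM in wild type. Oas2, a sensor of double-stranded RNA, stood at 9.75 and 9.84 FPKM against 4.14, 0 and 2.80 FPKM. Gbp4, an interferon-induced GTPase, stood at 222 and 139 FPKM against 142, 79.4 and 69.8 FPKM, and overlapped. Of 12 immune checkpoint ligands 4 were higher (0.89, and 1.04, but 0.29 without wild type replicate 3). Tnfsf10, the death ligand TRAIL, stood at 12.1 and 12.3 FPKM against 4.19, 2.84 and 2.42 FPKM, and Ido1, which breaks down tryptophan, at 45.9 and 27.8 FPKM against 12.3, 17.1 and 3.27 FPKM. Of 15 leukocyte adhesion genes 3 were higher (0.71, and 0.81), and of 23 NF-kB and inflammatory genes 7 were higher and 1 lower (0.38, and 0.30). Of 10 chemokine genes 2 were higher, and their median was 1.38 with all libraries and 0.27 without wild type replicate 2, which was listed at 0 for 9 of them.

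Proliferation genes did not separate the groups. Of 29 such genes 0 were higher and 0 lower without overlap, with a median of 0.00 (0.09 without wild type replicate 2, 0.17 without wild type replicate 1 and -0.25 without wild type replicate 3). Top2a, a topoisomerase that untangles chromosomes before division, stood at 348 and 522 FPKM in knockout and at 504, 406 and 265 FPKM in wild type, and Cdk1, the mitotic kinase, at 178 and 165 FPKM against 172, 164 and 91.3 FPKM. Of 25 hypoxia and glycolysis genes 6 were higher (0.52, and 0.36, and 0.78 without knockout replicate 1), with Ldha, lactate dehydrogenase A, at 498 and 654 FPKM against 411, 434 and 274 FPKM. Of 21 immediate early and stress genes 1 was higher and 4 lower without overlap (-0.12, and -0.18), and at an unadjusted p under 0.05 there was 1 higher and 1 lower. Hspb1, a small heat shock protein, was the higher one at 39.5 and 56.3 FPKM against 28.7, 0 and 14.6 FPKM. Ier2, an immediate early gene, stood at 10.5 and 14.9 FPKM against 18.7, 60.5 and 17.2 FPKM. Of 20 adhesion GPCR genes, the family of Adgrl4 itself, 5 were higher and 1, Adgrl4, lower (0.68, and 0.37). Adgrf5, another endothelial member, stood at 16.5 and 12.8 FPKM against 5.95, 8.26 and 7.52 FPKM, without overlap.

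**Figure D4:**
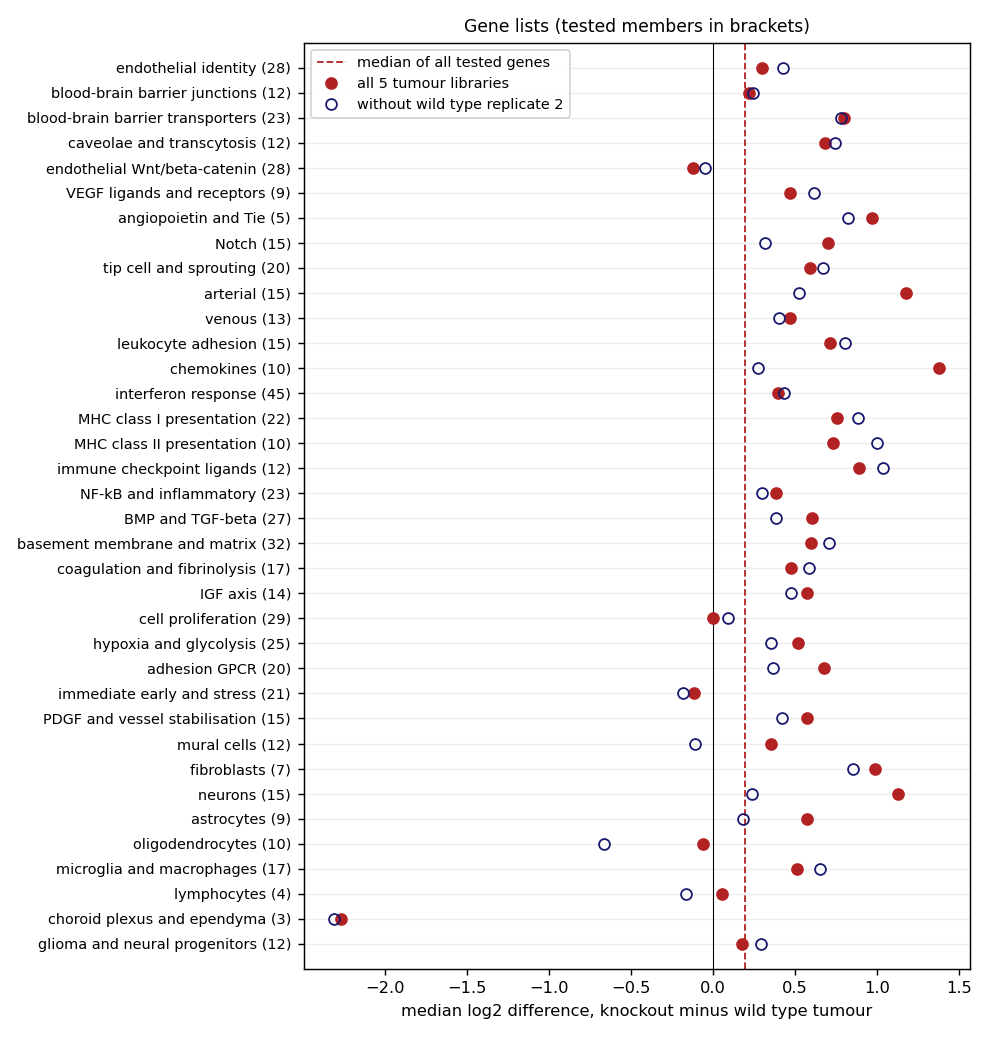
Median log2 difference of knockout minus wild type tumour for 36 gene lists with all 5 libraries (filled) and without wild type replicate 2 (open), with the median of all tested genes (0.19) as a dashed line. Barrier transporters and MHC class I genes keep medians near 0.8 in both, while arterial, chemokine and neuron lists go to 0.53, 0.27 and 0.24 without that library.

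Markers of macrophages and fibroblasts were often higher in knockout. Of 17 microglia and macrophage markers 8 were higher and 0 lower without overlap (median 0.51, and 0.65 without wild type replicate 2, and 0.34 without wild type replicate 3). Their summed level was 491 and 472 FPKM in knockout and 376, 314 and 179 FPKM in wild type tumours, without overlap, beside the higher antigen presentation, interferon and myeloid genes. C1qa, a complement gene of macrophages, stood at 134 and 102 FPKM against 73.8, 22.7 and 31.2 FPKM. Lyz2, myeloid lysozyme, stood at 124 and 128 FPKM against 107, 62.3 and 19.6 FPKM. The part of macrophage RNA in these gene groups was not tested. Of 7 fibroblast markers 5 were higher (0.99, and 0.85), with Col1a1 at 4.49 and 2.87 FPKM against 0.588, 0 and 1.12 FPKM, beside the higher matrix genes, and this too was not tested.

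Mural cell markers summed to 627 and 515 FPKM in knockout and to 377, 342 and 300 FPKM in wild type, but Mcam, which endothelium also expresses, made up most of each sum. Of 12 mural markers 3 were higher (0.35, and -0.11, but 0.68 without knockout replicate 1 and 0.76 without wild type replicate 1), and the pericyte receptor Pdgfrb stood at 2.22 FPKM or less in every tumour library. Neuronal markers, with a median of 1.13 over 15 genes (0.24 without wild type replicate 2), Tubb3 of the chromosome 8 interval among them, had 0 genes without overlap, and their median was 2.82 without wild type replicate 3, 0.42 without wild type replicate 1 and 0.47 without knockout replicate 2. Of 9 astrocyte markers 0 were higher and 1 lower (0.57, and 0.18, and 0.24 without wild type replicate 1). Of 10 oligodendrocyte markers 0 were higher and 0 lower (-0.06, and -0.66, but 0.67 without wild type replicate 3 and 0.07 without knockout replicate 1). Choroid plexus and ependymal markers summed to 2.92 and 2.55 FPKM in knockout and to 24.5, 11.5 and 82.9 FPKM in wild type tumours. Of the 3 tested, 0 were higher and 1 lower without overlap, 2 were lower at an unadjusted p under 0.05, and the median was -2.27 (-2.31 without wild type replicate 2). Clic6, a chloride channel protein, was the member without overlap, at 0.564 and 0.983 FPKM against 3.22, 6.95 and 17.1 FPKM. Ttr, the transthyretin of choroid plexus, was listed at 0 in both knockout tumours and stood at 19.7, 0 and 63.8 FPKM in wild type. Of 12 glioma and progenitor markers 3 were higher (0.18, and 0.29, and 0.41 without knockout replicate 1). Of the 4 lymphocyte markers tested 1 was higher and 1 lower (0.05, and -0.17, with -0.17 to 0.45 over the libraries left out). None of the 5 erythrocyte markers passed the filter.

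**Figure D5:**
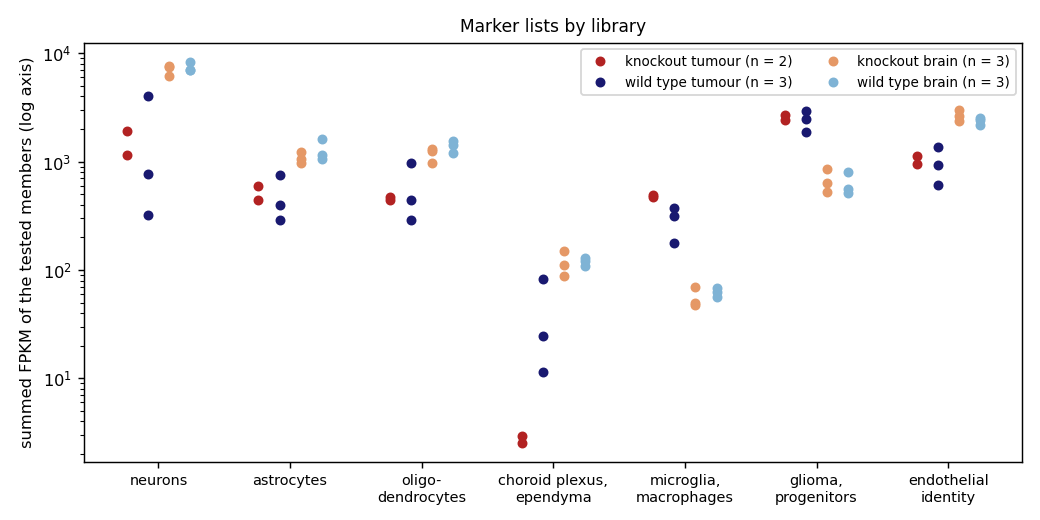
Summed FPKM of the tested members of 6 marker lists and of the endothelial identity list in each of the 11 libraries, on a log axis, with 1 point per library. Macrophage markers are above wild type in both knockout tumours (491 and 472 against 179 to 376 FPKM), and neuronal markers are highest among tumours in wild type replicate 3 (4079 FPKM). The neuronal sums take in Tubb3 of the chromosome 8 interval.

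In healthy brain, where knockout and wild type libraries share none with the tumours, the genotype called 0 of 13727 genes (0.0%), with 506 at an unadjusted p under 0.05 (3.69%), 322 of them higher (2.35%) and 184 lower (1.34%). The groups did not overlap for 646 genes higher (4.71%) and 558 lower (4.06%). Tumour and brain differences correlated at 0.020 across genes, which are not independent replicates. An unadjusted p under 0.05 in both tissues was found for 14 genes in one direction and 8 in opposite directions. Adgrl4 was in the first set. In tumour alone such a p was held by 2.91% of all tested genes as higher and 0.597% as lower, and in brain by 3.69%. How many genes unrelated differences would share was not computed, and both contrasts use the same estimate of the spread. The counts are thus no sign of agreement between the tissues. Ppapdc1b, a lipid phosphatase gene, stood at 18.9 and 6.94 FPKM in knockout and 1.85, 0 and 0 FPKM in wild type tumours, and at 16.6, 40.3 and 14.8 FPKM against 0, 0.994 and 4.04 FPKM in brain, without overlap in either tissue. Edn1, the vasoconstrictor endothelin-1, stood at 5.05 and 3.71 FPKM against 0.0825, 0 and 0.959 FPKM in tumour, without overlap. In brain Edn1 stood at 14.9, 7.33 and 7.04 FPKM against 0, 0 and 8.35 FPKM, with overlap. Tested directly, the tumour effect minus the brain effect passed for Cox4i1 alone (0.00728% of the tested genes), and 447 genes had an unadjusted p under 0.05 (3.26%). Slc15a4 differed by 5.48 on the log2 scale between the tissues (SE 1.43, limma adjusted p = 0.999) and did not pass.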

How the data were processed

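Per the labels' protocols, RNA captured from tagged ribosomes was depleted of ribosomal RNA, made into stranded libraries and sequenced on an Illumina HiSeq2500. The authors deposited FPKM values for each library. The submitters' processing notes name TopHat2 2.1.1, Cufflinks 2.2.1 and GRCm38, with no annotation or strand setting (not given in the sources used here), and overlapping and antisense genes are uncertain. Each library lists 46073 entries, and 210 symbols listed more than once were summed. Depth is unknown, and zeros can be failed estimates.

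limma 3.58.1 (R 4.3.3) was fitted on log2(FPKM + 1) with 4 group means over all 11 libraries, so that the brain libraries share in the spread (7 residual degrees of freedom, variance trend, Benjamini-Hochberg adjustment over 13727 genes, threshold 0.05). Fold changes on this scale understate those of low genes. The script was tested on simulated data. It recovered 0% of the genes given a log2 change of 1, 10.4% at 2 and 40.9% at 3, with 3 false calls, as many as were called in the data. The changed genes were all raised and had a wild type tumour mean above 2 on the log2 scale. Noise was normal with the same spread for a gene in all libraries, unlike the many zeros of wild type replicate 2. Real changes of such sizes can thus go uncalled here. Named genes were the targeted gene, called genes, the 15 with the smallest p in each direction among genes without overlap and with a group mean of at least 5 FPKM, and up to 6 members of each list. The set outside the chromosome 8 interval was added after values were seen, and Adgrl2, Fpgt, Ifi44, Tyw3, Zzz3, Map1lc3b, Rpl13, Cdk1, Top2a, Kdr, Vegfa, Lef1 and Pdgfrb were named after theirs were. 1 member of a marker list is not reported here by itself. Genes correlating with Adgrl4 were left out, since 5 libraries are too few. Members and lists were chosen with earlier results of these data known. Positions, names and promoters are those of RefSeq GRCm38.p6, in which 13322 tested genes were placed. Alternatives changed the pseudocount, filter, scaling, variance model, weights, covariates, libraries and genes tested.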

Additional observations from a re-analysis of the deposited data

Results flagged for a closer look

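The genotype difference of Cox4i1 was not the same in tumour and brain by the test of the difference itself. The difference of differences was 6.52 on the log2 scale (SE 0.72, limma adjusted p = 0.0240), with 6.32 in tumour and -0.20 in brain. Cox4i1 lies in the chromosome 8 interval whose genes were all at 0 in the tumours of wild type replicates 1 and 3, and it was listed at 0 in wild type tumour replicate 2 as well. The call of the difference was lost when knockout replicate 2, wild type replicate 1 or wild type replicate 3 was left out. It was also lost with quantile normalization, with no variance trend and with neuron markers as a covariate.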

How the results depend on the processing

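No paired analysis was possible because the replicate numbers follow accession order and pair no samples. The number of genes called in tumour, 3 in the main setting, was 15 with no filter, 1 with a filter of 5 FPKM, with quantile normalization, with neuron markers as a covariate and with Y-linked transcripts as a covariate, 63 with library weights, 0 with the tumour libraries alone and with the chromosome 8 interval left out, 34 without wild type replicates 2 and 3 together, 481 on the unadjusted p, and 0 to 33 when 1 tumour library was left out. The number called higher was 15 with no filter, 1 with a filter of 5 FPKM, with quantile normalization, with neuron markers as a covariate and with Y-linked transcripts as a covariate, 54 with library weights, 0 with the tumour libraries alone and with the chromosome 8 interval left out, 23 without wild type replicates 2 and 3 together, and 0 to 30 when 1 tumour library was left out. The number called lower was 9 with library weights, 11 without wild type replicates 2 and 3 together, and 0 to 3 when 1 tumour library was left out. The number called for the difference of the genotype effects, 1 in the main setting, was 2 with no filter, 0 with quantile normalization, with no variance trend, with neuron markers as a covariate and with the chromosome 8 interval left out, 9 with library weights, 16 without wild type replicates 2 and 3 together, and 0 to 16 when 1 tumour library was left out. The number called near Adgrl4, 1 in the main setting, was 0 with a pseudocount of 0.1, with a pseudocount of 0.5, with a filter of 5 FPKM, with quantile normalization, with the tumour libraries alone, without wild type replicates 2 and 3 together, with neuron markers as a covariate, with Y-linked transcripts as a covariate and with the chromosome 8 interval left out, and 0 to 1 when 1 tumour library was left out. The cause of each move was not tested. The log2 difference of Adgrl4 passed the threshold with library weights (-2.34) and on the unadjusted p (-2.78), and was negative under every alternative run. Of 36 list medians 15 moved under at least 1 alternative by more than the SD of the list's level between the 3 wild type tumours. This SD takes in wild type replicate 2 itself. The medians of arterial (0.53), chemokines (0.27) and neurons (0.24) without that library were thus not counted as moved, so the count is no measure of stability. With neuron markers as a covariate, the median was 0.57 for endothelial identity, 0.59 for VEGF ligands and receptors, 1.09 for angiopoietin and Tie and -0.15 for astrocytes. With a pseudocount of 0.1, the median was 0.91 for blood-brain barrier transporters, 0.62 for VEGF ligands and receptors, 2.28 for arterial, 0.70 for venous, 1.08 for coagulation and fibrinolysis, 0.87 for PDGF and vessel stabilisation and 1.82 for fibroblasts. With quantile normalization, the median was 0.65 for blood-brain barrier transporters, 0.26 for VEGF ligands and receptors, 0.25 for venous and 0.074 for PDGF and vessel stabilisation. Without wild type replicates 2 and 3 together, the median was 0.91 for blood-brain barrier transporters, 0.57 for venous, -0.11 for chemokines, 0.16 for interferon response, 0.17 for BMP and TGF-beta and -0.34 for immediate early and stress. With a pseudocount of 0.5, the median was 0.54 for VEGF ligands and receptors and 0.54 for venous. With a filter of 5 FPKM, the median was 0.69 for venous, -0.32 for immediate early and stress, 0.26 for PDGF and vessel stabilisation and -0.96 for lymphocytes. With upper quartile scaling, the median was 0.52 for venous. With library weights, the median was 0.58 for venous. With Y-linked transcripts as a covariate, the median was 0.43 for venous. With 1 tumour library left out, the medians ran from 0.066 to 0.56 for endothelial identity, 0.67 to 0.95 for blood-brain barrier transporters, 0.41 to 0.78 for VEGF ligands and receptors, 0.77 to 1.06 for angiopoietin and Tie, 0.37 to 0.65 for venous and 0.16 to 0.75 for coagulation and fibrinolysis. Of 225 named genes 196 kept their sign under every alternative run, and 29, none of them called, changed sign in 45 values. With 1 tumour library left out, their log2 differences ran from -0.65 to 0.22 for Angpt1, -0.21 to 2.43 for Cldn11, -0.18 to 2.00 for Fgfr3, -0.50 to 0.081 for Foxj1, -0.76 to 1.49 for Gzmb, -0.93 to 0.41 for Lck, -0.24 to 0.72 for Olig1, -2.94 to 0.018 for Slc38a5, -1.85 to 0.23 for Sqstm1, -0.30 to 2.03 for Vegfb and -0.20 to 1.26 for Vtn. With library weights, the log2 difference was -0.052 for Cldn12, -0.43 for Vegfb, 0.20 for Angpt1, -0.77 for Gzmb, 0.14 for Foxj1 and -0.28 for Olig1. Without wild type replicates 2 and 3 together, the log2 difference was -0.42 for Cldn12, -0.77 for Vegfb, -0.13 for Angpt2, 0.31 for Angpt1, -0.18 for Plaur, -0.023 for Cxcl9, -0.21 for Cxcl10, -0.35 for Cxcl16, -0.19 for Nfkb1, -0.033 for Ccne1, -0.049 for E2f1, -0.042 for Pcna, -0.12 for Rgs5, -1.15 for Gzmb, 0.23 for Foxj1 and -0.42 for Olig1. With quantile normalization, the log2 difference was -0.072 for Flt4, -0.019 for Col1a2 and -0.34 for Gzmb. With neuron markers as a covariate, the log2 difference was -0.024 for Vtn, -0.017 for Camk2a, -0.017 for Nrgn, -0.26 for Rbfox3, -0.15 for Slc1a2, -0.24 for Fgfr3 and -0.26 for Mal. Of the named genes not called, 22 gained a call in 38 values, 16 of these with library weights. Depth is unknown, and with 2 knockout libraries the exact test of 1 gene cannot reach a p below 0.1.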
